A study of Mus musculus with 12 samples.

Results

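The genes described here encode the proteins of the cytosolic and the mitochondrial ribosome. Members were the genes whose single symbol in the platform table opens with Rpl, Rps, Mrpl or Mrps followed by a digit, without the Rps6k kinases and without names ending in -ps or os. The rule found 132 of the 19248 genes measured, 56 of them cytosolic (24 small-subunit and 32 large-subunit names) and 76 mitochondrial (29 and 47). Each gene was read from its brightest probe set. Subunits were taken from the names, although Mrps30 and Mrps18a are known to sit in the large mitochondrial subunit. Some matching names are no ribosome subunit: Rps19bp1 encodes a protein that binds Rps19, Rps23rg1 is a retrogene copied from Rps23, and Mrps36 belongs to the 2-oxoglutarate dehydrogenase complex. They were kept because the rule names them.

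Expression was measured with whole-transcript arrays in the striatum of 12 mice aged 8 weeks, 3 in each of 4 groups. NT_p62WT mice carried no Huntington's disease (HD) transgene and had normal p62, NT_p62KO mice carried no transgene and lacked p62, HD_p62WT mice were HD transgenic with normal p62, and HD_p62KO mice were HD transgenic and lacked p62. p62, the product of Sqstm1, is a receptor that carries ubiquitinated cargo to autophagosomes. The sources used here do not name the HD line, its promoter or the cells that express the transgene, nor sex and strain. Values are log2 expression values made with RMA, a method that scales arrays to a common distribution, which hides any change common to most genes, and the brightness of different probe sets cannot be set side by side as amounts of RNA.

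Cytosolic ribosomes translate the messenger RNAs of nuclear genes, and they are assembled from ribosomal RNA and proteins largely in the nucleolus. Their messenger RNAs typically begin with a short pyrimidine tract, the 5′ TOP motif, through which the kinase TOR controls their translation. Mitochondrial ribosomes translate only the messenger RNAs of the mitochondrial genome, which encode core parts of the respiratory chain. All of their proteins are imported products of nuclear genes, some related to bacterial ribosomal proteins and others found only in mitochondria.

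RefSeq promoter windows (GRCm38.p6, 250 bases before to 50 after a gene's start) were held for 113 of the 132 members, 46 cytosolic and 67 mitochondrial. The stretches printed here run from 100 bases before to 20 after the start, on the gene's own strand from 5′ to 3′. They show how the promoters of both classes look, in the genes whose values are described below. Rps6 and Rps9 stand for cytosolic subunits that open on a pyrimidine tract, Rps27l and Rpl7l1 for the cytosolic paralogs that rose in HD mice, and Mrps22 and Mrpl39 for mitochondrial genes that rose; the stretches of Rpl7l1 and Mrpl39 hold none of the letters searched. Capitals mark CGGAAG (the core that ETS factors such as GABP bind) or TCTCGCGA on either strand, and a pyrimidine tract of at least 6 bases that opens with C within 10 bases of the start on the gene's strand.
Rps6 (chr4:86857348-86857467, minus strand): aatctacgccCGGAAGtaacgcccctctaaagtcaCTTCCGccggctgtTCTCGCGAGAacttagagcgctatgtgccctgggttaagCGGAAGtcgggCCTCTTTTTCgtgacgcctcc
Rps9 (chr7:3703941-3704060, plus strand): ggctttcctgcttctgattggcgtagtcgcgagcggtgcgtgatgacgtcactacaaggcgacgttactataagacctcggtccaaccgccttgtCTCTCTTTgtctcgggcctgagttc
Rps27l (chr9:66945986-66946105, plus strand): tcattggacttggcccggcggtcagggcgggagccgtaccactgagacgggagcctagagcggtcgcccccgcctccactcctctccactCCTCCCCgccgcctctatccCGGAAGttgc
Rpl7l1 (chr17:46782637-46782756, minus strand): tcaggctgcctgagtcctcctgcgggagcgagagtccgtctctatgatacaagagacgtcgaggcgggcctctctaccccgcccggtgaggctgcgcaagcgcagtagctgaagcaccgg
Mrps22 (chr9:98601660-98601779, minus strand): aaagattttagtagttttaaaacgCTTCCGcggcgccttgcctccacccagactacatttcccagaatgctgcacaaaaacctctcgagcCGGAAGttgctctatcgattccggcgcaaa
Mrpl39 (chr16:84735225-84735344, minus strand): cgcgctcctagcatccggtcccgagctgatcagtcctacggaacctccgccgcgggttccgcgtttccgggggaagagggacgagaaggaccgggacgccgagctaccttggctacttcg

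CGGAAG, which the Rps6 and Mrps22 stretches hold more than once, lay in 61.8% of 55 cytosolic and 54.3% of 70 mitochondrial windows, against 16.9% of all 32851 windows of the same length. The classes differed in the other motifs. TCTCGCGA lay in 18.2% of cytosolic and 1.43% of mitochondrial windows (0.995% of all), and AAGATGGC, the motif of the factor YY1, in 5.45% and 17.1% (2.75% of all). The pyrimidine tract was found in 40% of cytosolic, 22.9% of mitochondrial and 19.2% of all windows, and TATAAA in 7.27%, 5.71% and 13.6%. Each motif but the tract was searched on both strands. CGGAAG ends with the letters that open AAGATGGC, so these can overlap, and TCTCGCGA can overlap its own match on the opposite strand. A match describes letters only. Over the mean HD difference, the median was 0.064 in 21 cytosolic genes with a tract and 0.073 in 25 without, and 0.12 in 37 mitochondrial genes with CGGAAG and 0.16 in 30 without.

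Sqstm1 was low in each mouse labelled as a knockout. Its log2 values were 11.19 to 11.35 in NT_p62WT and 8.44 to 8.52 in NT_p62KO mice, and 11.26 to 11.75 in HD_p62WT and 8.92 to 9.13 in HD_p62KO mice. Markers of medium spiny neurons, the main cell of the striatum, averaged 11.07 to 11.34 in non-transgenic and 10.43 to 10.58 in HD mice, with 9 of 10 markers lower and 1 higher (mean HD difference, limma). Of the oligodendrocyte markers 5 of 9 were lower, of the astrocyte markers 3 of 10, of the endothelial and mural markers 2 of 10 and of the cortical excitatory markers 1 of 9, and 1 of 8 microglial and 1 of 9 choroid plexus markers was higher. Over all genes 15% were lower and 19.9% higher in that comparison. The endothelial, cortical, microglial and choroid plexus counts were near or below those shares. In bulk striatum, fewer cells of a type and less RNA per cell cannot be told apart. The part of these shifts in the results on ribosomal protein genes was not tested. The spread of all log2 values on an array (SD over genes) was 1.58 to 1.67 in non-transgenic and 1.64 to 1.73 in HD mice, and it is given beside the results it touches.

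Averaged over their genes, both classes tended to slightly higher values in HD mice. For mitochondrial genes the mean was 8.57 ± 0.057 in non-transgenic and 8.70 ± 0.052 in HD mice (SD, n = 6 each). For cytosolic genes it was 9.91 ± 0.049 and 9.98 ± 0.053, a smaller difference beside a similar spread. The mean over the 76 mitochondrial genes was 8.60, 8.61 and 8.59 in the NT_p62WT mice and 8.58, 8.62 and 8.46 in the NT_p62KO mice. It was 8.75, 8.63 and 8.69 in the HD_p62WT mice and 8.65, 8.74 and 8.72 in the HD_p62KO mice. The ranges were separate but nearly touched, at 8.62 and 8.63. They overlapped when each array's median over all genes was subtracted (0.66 to 0.82 in non-transgenic and 0.82 to 0.94 in HD mice, the nearest pair crossing). The median over the 76 genes also overlapped, at 8.58 to 8.74 and 8.62 to 8.87. The mean over the 56 cytosolic genes was 9.83 to 9.97 in non-transgenic and 9.92 to 10.05 in HD mice, and these ranges overlapped. The difference between the class means within an array was 1.34 ± 0.029 (SD, n = 6) in non-transgenic and 1.28 ± 0.016 (SD, n = 6) in HD mice, with an overlap between 1.30 and 1.31.

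**Figure D1:**
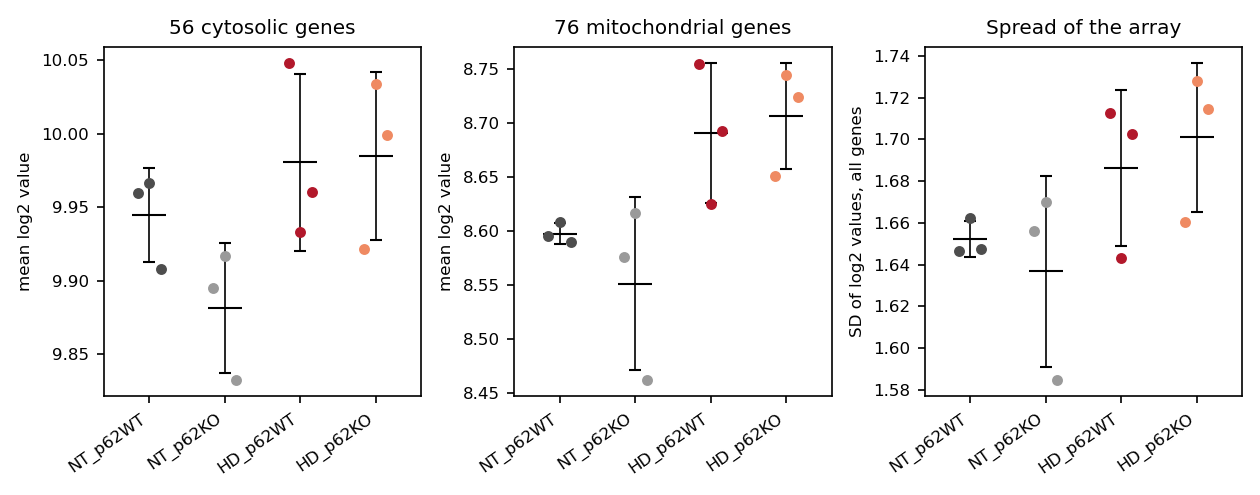
Mean log2 value of the 56 cytosolic genes (left) and the 76 mitochondrial genes (middle) and the SD of all log2 values on the array (right) in each of the 12 mice; points are mice, long bars group means and error bars SD (n = 3). The mitochondrial means of HD mice (8.63 to 8.75) lie just above those of non-transgenic mice (8.46 to 8.62), a separation lost with equal array medians, the cytosolic means overlap, and the NT_p62KO mouse with the smallest array SD (1.58) also has the lowest class means.

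Averaged over both p62 genotypes, 28 mitochondrial ribosomal protein genes rose in HD mice, 1 fell and 47 did not pass the test (limma, adjusted p below 0.05 over all 19248 genes). Of the cytosolic genes 13 rose, 2 fell and 41 did not pass. The background was high: 35% of all genes passed, 19.9% higher and 15% lower. The share called higher was 36.8% of the mitochondrial and 23.2% of the cytosolic genes. The median log2 difference was 0.12 over mitochondrial and 0.069 over cytosolic genes, against -0.022 over all genes. Of the differences 60 of 76 (78.9%) and 41 of 56 (73.2%) were positive, against 46.2% over all genes. Over all 4839 genes in the interquartile brightness range of the mitochondrial genes, 30.2% were called higher, 62.3% were positive and the median was 0.062. Over the 3493 genes in that of the cytosolic genes, 30.9% were called higher, 64.4% were positive and the median was 0.076. The cytosolic share called higher was thus below, and the cytosolic median close to, that of genes as bright. After quantile normalization of the values again, 11 cytosolic genes were higher and 5 lower, and 18 of 20 called mitochondrial genes were higher. That setting called 28.6% of cytosolic, 26.3% of mitochondrial and 32.1% of all genes. Of the calls over all genes, 55.2% were higher. With equal array medians the cytosolic split was 10 and 4 and the mitochondrial split 23 and 1. The shares called were then 25% of cytosolic, 31.6% of mitochondrial and 36% of all genes, with 49.9% of the calls over all genes higher.

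With the array SD as a covariate, 3 of the 15 cytosolic and 5 of the 29 mitochondrial calls were kept, 1 cytosolic gene was newly called lower, and 13.2% of all genes passed. The cytosolic median was then -0.0015 and the mitochondrial 0.047. Leaving out NT_p62WT replicate 3 gave 6 cytosolic and 18 mitochondrial calls. Without HD_p62WT replicate 1 they were 7 and 18, without HD_p62KO replicate 2, 8 and 19, without HD_p62KO replicate 3, 8 and 18, without HD_p62WT replicate 3, 11 and 19, and without NT_p62KO replicate 3, 9 and 20. The share of all genes called fell with them, from 35% to between 25.9% (without HD_p62KO replicate 2) and 28% (without NT_p62KO replicate 3).

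**Figure D2:**
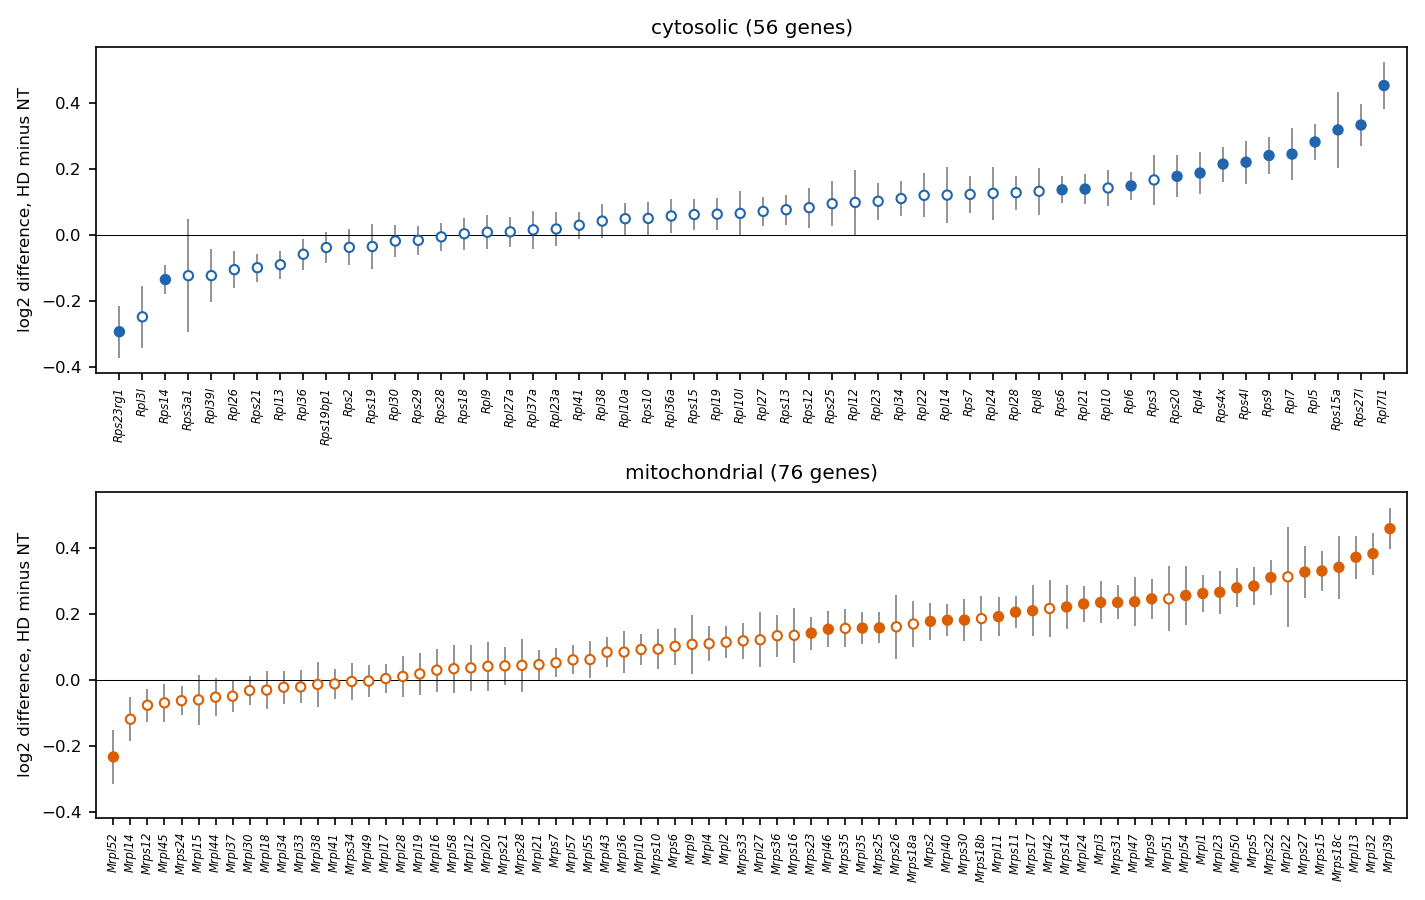
Mean HD difference (HD minus non-transgenic, log2) of every member, cytosolic above and mitochondrial below, in rising order; bars are standard errors from limma and filled points passed an adjusted p of 0.05. Differences run from -0.29 (Rps23rg1) to 0.45 (Rpl7l1) in the cytosolic and from -0.23 (Mrpl52) to 0.46 (Mrpl39) in the mitochondrial class.

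Among the mitochondrial large-subunit genes, Mrpl39, which encodes a protein found only in mitochondrial ribosomes, had the largest rise. Its log2 values were 9.04, 8.93 and 8.91 in NT_p62WT, 8.93, 9.01 and 8.96 in NT_p62KO, 9.63, 9.45 and 9.29 in HD_p62WT and 9.30, 9.46 and 9.41 in HD_p62KO mice. The lowest HD mouse was above the highest non-transgenic mouse. The mean HD difference was 0.46 ± 0.062 (SE, 1.37-fold; limma, adjusted p = 0.000399).

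Mrpl32 encodes a subunit that the mitochondrial m-AAA protease must trim before it joins the ribosome. It read 6.73, 6.82 and 6.81 in NT_p62WT, 6.84, 6.84 and 6.56 in NT_p62KO, 7.28, 7.07 and 7.11 in HD_p62WT and 7.07, 7.15 and 7.22 in HD_p62KO mice. The groups with and without the transgene did not overlap, and the difference was 0.38 ± 0.063 (SE; limma, adjusted p = 0.00126). Mrpl13, a subunit with a bacterial relative, read 7.71 to 7.74 in the NT_p62WT mice, 7.68, 7.97 and 7.59 in the NT_p62KO mice, 8.04 to 8.07 in the HD_p62WT mice and 8.07, 8.27 and 8.13 in the HD_p62KO mice. All HD mice were higher, the nearest mouse without the transgene being the NT_p62KO mouse at 7.97, and the difference was 0.37 ± 0.065 (SE; limma, adjusted p = 0.00159). The other large-subunit genes that rose were Mrpl1 (0.26), Mrpl3 (0.24), Mrpl11 (0.19), Mrpl23 (0.27), Mrpl24 (0.23), Mrpl35 (0.16), Mrpl40 (0.18), Mrpl46 (0.15), Mrpl47 (0.24), Mrpl50 (0.28) and Mrpl54 (0.26). Of these, Mrpl46 and Mrpl54 each lost the call under 15 of 22 alternatives, Mrpl35 under 8, Mrpl47 under 7 and Mrpl11 under 6, and the others under 1. In all, 14 of the 47 genes with large-subunit names rose and 1 fell.

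Of the 29 mitochondrial genes with small-subunit names, 14 were higher and 0 lower. Their median difference was 0.16, against 0.085 over the 47 genes with large-subunit names. The 29 include Mrps30, which rose, and Mrps18a, although both sit in the large subunit, and Mrps36, which is no ribosome subunit. Mrps22, a subunit specific to mitochondria that is mutated in an inherited deficiency of mitochondrial translation, read 8.22, 8.22 and 8.12 in NT_p62WT and 8.12, 8.25 and 8.03 in NT_p62KO mice. In HD mice it read 8.51, 8.36 and 8.50 with normal p62 and 8.42, 8.56 and 8.49 without p62. These ranges did not overlap, and the difference was 0.31 ± 0.054 (SE; limma, adjusted p = 0.00166). Mrps15, whose bacterial relative binds the small ribosomal RNA, was at 9.11 to 9.39 in non-transgenic and 9.56 to 9.73 in HD mice, a difference of 0.33 ± 0.060 (SE; limma, adjusted p = 0.00207). Mrps5 (0.29), Mrps27 (0.33), Mrps31 (0.24), Mrps9 (0.25) and Mrps11 (0.21) also rose, with adjusted p between 0.0036 and 0.0099 (limma), as did Mrps2 (0.18), Mrps14 (0.22), Mrps17 (0.21), Mrps23 (0.14), Mrps25 (0.16) and Mrps30 (0.18), with adjusted p between 0.0214 and 0.0498. The call of Mrps23 was lost under 16 of 22 alternatives, those of Mrps17 and Mrps30 under 15, that of Mrps2 under 8 and those of Mrps14 and Mrps25 under 7. Of the 3 Mrps18 paralogs, which are related to 1 bacterial protein, Mrps18c rose by 0.34 ± 0.096 (SE; limma, adjusted p = 0.0176). Mrps18b differed by 0.19 ± 0.069 (adjusted p = 0.0531) and Mrps18a by 0.17 ± 0.071 (adjusted p = 0.078), and a difference among the 3 was not tested.

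Mitochondrial ribosomal proteins include relatives of bacterial ones and later additions. Here they were split by number alone, into numbers shared with bacterial families and later, higher numbers. This split need not separate relatives from additions, since a higher number can also belong to a relative of a bacterial protein. Of 44 members with shared numbers 16 rose and 0 fell (median 0.11), and of 32 with later numbers 12 rose and 1 fell (median 0.14).

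Mrpl52, a large-subunit protein found only in mitochondria, was the 1 mitochondrial gene called lower. It read 9.63, 9.57 and 9.64 in NT_p62WT, 9.41, 9.67 and 9.77 in NT_p62KO, 9.46, 9.53 and 9.44 in HD_p62WT and 9.56, 9.14 and 9.17 in HD_p62KO mice. The ranges overlapped, and its call (-0.23 ± 0.081, SE; limma, adjusted p = 0.0419) was kept under 10 of 22 alternatives and lost under 12. It did not pass, for example, without HD_p62KO replicate 2 (adjusted p = 0.103) or without NT_p62WT replicate 1 (adjusted p = 0.077).

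The cytosolic genes of smallest p, Rpl7l1 and Rps27l, were paralogs of core subunits. Rpl7l1, a paralog of the large-subunit gene Rpl7, read 8.81, 8.97 and 8.68 in NT_p62WT and 8.87, 8.73 and 8.86 in NT_p62KO mice. It read 9.34, 9.11 and 9.23 in HD_p62WT and 9.13, 9.41 and 9.43 in HD_p62KO mice. The ranges did not overlap, and the difference was 0.45 ± 0.072 (SE, 1.37-fold; limma, adjusted p = 0.00104). Rps27l, a p53-responsive paralog of Rps27, read 8.47, 8.58 and 8.41 in NT_p62WT, 8.63, 8.52 and 8.65 in NT_p62KO, 9.02, 8.78 and 8.89 in HD_p62WT and 8.69, 8.97 and 8.93 in HD_p62KO mice. All HD mice were again higher (0.33 ± 0.064, SE; limma, adjusted p = 0.00272). Rps4l, a paralog of Rps4x, rose by 0.22 ± 0.065 (SE; limma, adjusted p = 0.0212), with 1 of its 2 probe sets past the threshold. Rpl3l, the muscle form of Rpl3, differed by -0.25 ± 0.093 (adjusted p = 0.0571), Rpl10l, which replaces Rpl10 in the male germline, by 0.066 ± 0.068 and Rpl39l, a testis paralog of Rpl39, by -0.12 ± 0.081, and these did not pass. In all, 3 of the 8 paralogs and other name matches rose and 1 fell, and 10 of the 48 other cytosolic genes rose and 1 fell.

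Rpl5 had the smallest p among the core subunits. It joins Rpl11 and the 5S ribosomal RNA and can bind Mdm2, the ubiquitin ligase of p53. It read 10.15, 10.20 and 10.09 in NT_p62WT, 9.98, 10.15 and 9.89 in NT_p62KO, 10.39, 10.26 and 10.35 in HD_p62WT and 10.30, 10.44 and 10.40 in HD_p62KO mice. HD and non-transgenic mice did not overlap, the difference was 0.28 ± 0.056 (SE; limma, adjusted p = 0.00315), and each of its 3 probe sets was higher (0.28 to 0.30). All probe sets were also higher for Rpl6 (3 of 3), Rps4x (4 of 4) and Rps6 (6 of 6, 0.12 to 0.16). Rps6, the substrate of the S6 kinases, read 12.49 to 12.56 in non-transgenic and 12.62 to 12.70 in HD mice, a small but separate difference of 0.14 ± 0.040 (SE; limma, adjusted p = 0.021). Rps9 (0.24), Rps4x (0.22), Rpl7 (0.25), Rpl4 (0.19), Rps20 (0.18), Rps15a (0.32), Rpl6 (0.15) and Rpl21 (0.14) also rose. For Rpl21, 1 of 4 probe sets passed. Rps20 lost the call under 16 of 22 alternatives, Rps15a under 14 (down to 0.12), Rpl4 under 12, Rpl7 and Rpl21 under 9, Rps4l under 6, Rps6 and Rpl6 under 3, and Rps9 and Rps4x under 1.

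The cytosolic genes called lower were Rps23rg1 and Rps14. Rps23rg1, the retrogene, read 7.91, 7.75 and 7.72 in NT_p62WT, 7.72, 7.64 and 7.84 in NT_p62KO, 7.33, 7.78 and 7.40 in HD_p62WT and 7.53, 7.37 and 7.42 in HD_p62KO mice. HD_p62WT replicate 2 lay among the non-transgenic mice and the other HD mice lay below them (-0.29 ± 0.079, SE; limma, adjusted p = 0.0148). Its probe set may also read Rps23 itself, so the gene behind the signal is uncertain. Rps14, a protein of the small subunit's platform, was at 9.76 to 9.87 in non-transgenic and 9.63 to 9.72 in HD mice, ranges that did not overlap. Its difference of -0.13 ± 0.044 (SE; limma, adjusted p = 0.0334) was lost under 11 of 22 alternatives, among them leaving out NT_p62WT replicate 3 (adjusted p = 0.0823) or HD_p62WT replicate 3 (adjusted p = 0.0858). Over the class, 7 cytosolic genes were separately higher and 1 lower in all HD mice, and 15 mitochondrial genes were separately higher, where 10.5% of all genes were separately higher and 5.69% lower.

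**Figure D3:**
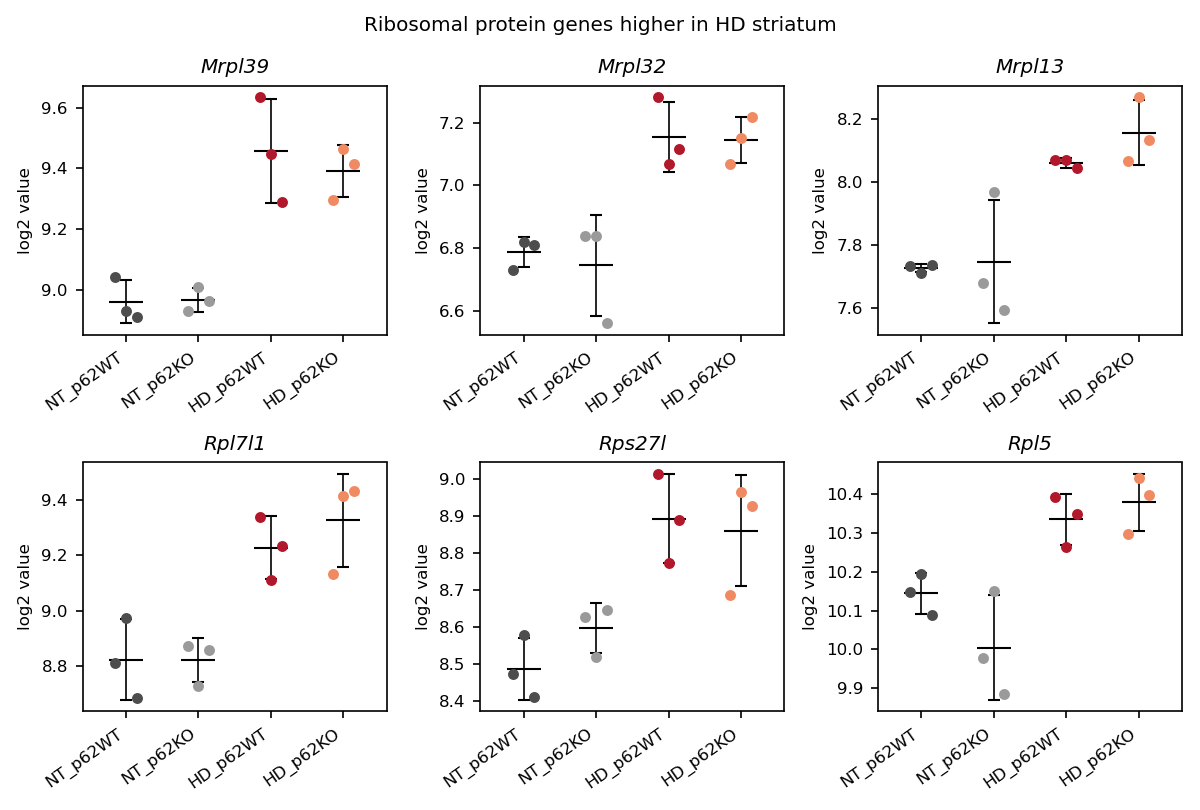
Log2 values of 6 members in each mouse by group; points are mice, long bars group means and error bars SD (n = 3). In each panel all 6 HD mice lie above all 6 non-transgenic mice, for example at 9.29 to 9.63 against 8.91 to 9.04 for Mrpl39.

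Of the 44 members called for the mean HD difference, Mrpl39, Mrpl32, Mrpl13, Mrps22, Mrps15, Rpl7l1, Rps27l and Rpl5 stayed past the threshold under all 22 alternatives. These included the array SD as a covariate, where Mrpl39 differed by 0.41 (limma, adjusted p = 0.00775), Rpl7l1 by 0.36 (adjusted p = 0.0216), Mrpl32 by 0.25 (adjusted p = 0.0143) and Rps27l by 0.25 (adjusted p = 0.0482). The other 36 each lost the call with that covariate. Rps9, for example, then differed by 0.13 (adjusted p = 0.119) and Rps6 by 0.11 (adjusted p = 0.125). No called member changed sign under any of the 22.

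**Figure D4:**
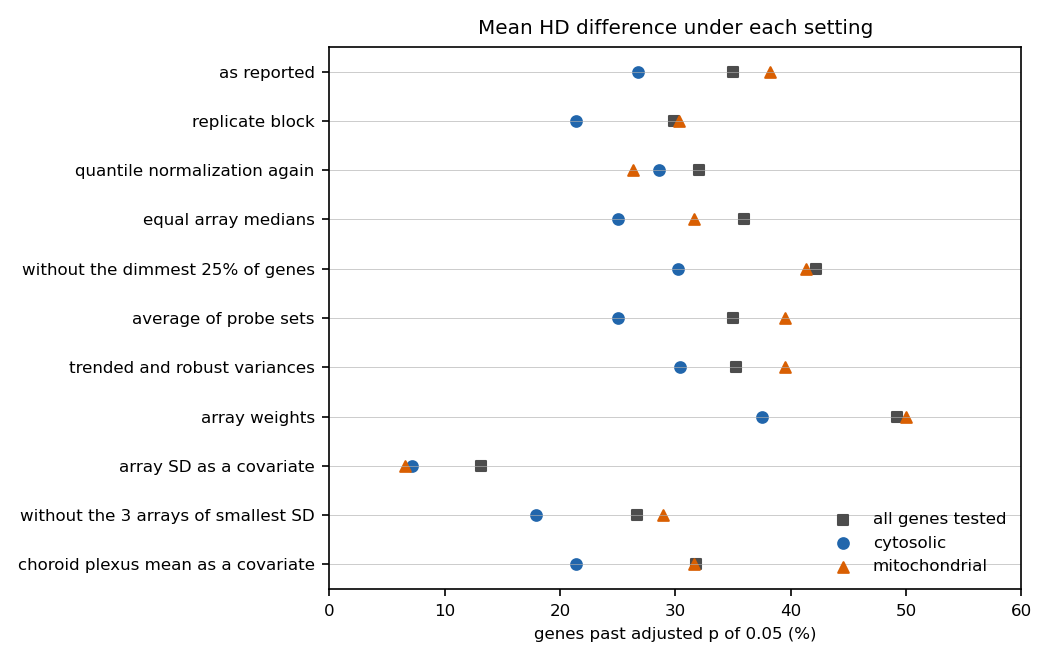
Share of genes past an adjusted p of 0.05 for the mean HD difference, over all genes tested, the cytosolic and the mitochondrial members, as reported and under 10 alternatives. The cytosolic share lies below that of all genes under every setting shown, and with the array SD as a covariate the shares are 13.2% of all, 7.14% of cytosolic and 6.58% of mitochondrial genes.

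With normal p62, 5 mitochondrial and 2 cytosolic ribosomal protein genes were higher in HD than in NT_p62WT mice and none was lower. That is 6.58% and 3.57% of the members, against 7.1% of all genes, 3.85% higher and 3.24% lower. The mitochondrial genes were Mrpl39 (0.50 ± 0.087, SE, 1.41-fold; limma, adjusted p = 0.00838), Mrpl32 (0.37), Mrpl13 (0.33), Mrps15 (0.31) and Mrps11 (0.28). The cytosolic genes were Rps27l (0.41 ± 0.091, SE; adjusted p = 0.0237) and Rpl7l1 (0.40 ± 0.10, SE; adjusted p = 0.0359). In 25 of 76 mitochondrial and 7 of 56 cytosolic genes all 3 HD mice were above all 3 others, where 17.8% of all genes were. The class medians were 0.086 and 0.024, against -0.0091 over all genes. Genes as bright as the mitochondrial members had a median of 0.051 and genes as bright as the cytosolic members one of 0.055, so the cytosolic median lay below that of genes as bright. Quantile normalization again gave class medians of 0.047 and 0.016.

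Mrpl39 passed under all 23 alternatives of this comparison, and the other 6 did not. Leaving out NT_p62WT replicate 1 or 3, or HD_p62WT replicate 1 or 3, left 0 cytosolic and 1 mitochondrial gene, and 2.07% to 2.29% of all genes. Leaving out NT_p62KO replicate 1 or HD_p62KO replicate 3 left 3 of the 5 mitochondrial calls, with 5.81% and 5.34% of all genes. Without NT_p62WT replicate 2 there were 3 mitochondrial calls, 1 of them among the 5, with 4.39% of all genes.

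Without p62, 21 mitochondrial and 7 cytosolic genes were higher in HD_p62KO than in NT_p62KO mice and again none was lower. These were 27.6% and 12.5% of the members, against 21.7% of all genes, 13.3% higher and 8.34% lower. The medians were 0.15 and 0.12, against -0.020 over all genes and 0.080 and 0.095 over genes as bright. They were 0.075 and 0.060 after quantile normalization again and 0.041 and 0.022 with the array SD as a covariate. As reported, 29 mitochondrial and 21 cytosolic genes were separately higher, where 22.3% of all genes were. Mrpl50, a large-subunit protein of mitochondria, had the smallest p. It read 9.27, 9.29 and 9.04 in NT_p62KO and 9.52, 9.66 and 9.72 in HD_p62KO mice, and 9.41, 9.37 and 9.29 in NT_p62WT and 9.53, 9.42 and 9.49 in HD_p62WT mice. Its difference was 0.43 ± 0.084 (SE; limma, adjusted p = 0.0067) without p62 and 0.13 ± 0.084 (adjusted p = 0.37) with it, and both pairs of groups were separate. Mrpl39 (0.42), Mrps22 (0.35), Mrpl13 (0.41), Mrpl32 (0.40) and Mrps15 (0.35) followed. The cytosolic genes were Rpl7l1 (0.50 ± 0.10, SE; adjusted p = 0.00805), Rpl5 (0.37 ± 0.079, SE; adjusted p = 0.00966), Rps9 (0.37), Rpl7 (0.35), Rps20 (0.30), Rps4x (0.26) and Rpl6 (0.21).

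None of these 28 calls was kept with the array SD as a covariate, where Mrpl50 had an adjusted p of 0.0524 and 843 of all genes passed. Leaving out HD_p62KO replicate 2 left 2 cytosolic and 3 mitochondrial calls, leaving out HD_p62KO replicate 3 left 3 and 7, and leaving out NT_p62KO replicate 3 left 3 and 6, with 6.61%, 9.33% and 9.75% of all genes. Without NT_p62KO replicate 1 there were 3 cytosolic calls (5.36%), with 15.9% of all genes. Without HD_p62KO replicate 1 there were 14 (25%), with 26.6% of all genes.

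The comparisons with and without p62 share no mice, but they come from the same fit of all arrays. Each gene has the same estimate of spread in both, which favours genes of small spread in both. The calls shared between them are therefore not independent. Of the genes called in them, Rpl7l1 was shared in the cytosolic class, which is 50% of the calls with p62 and 14.3% of those without. Mrpl39, Mrpl32, Mrpl13 and Mrps15 were shared in the mitochondrial class (80% and 19%). Over all genes 1107 calls were shared (81% and 26.5%). Both differences were positive in 33 of 56 cytosolic and 52 of 76 mitochondrial genes, and in 7318 of all 19248 genes. Taken singly, the differences with and without p62 were positive in 61.3% and 66.9% of genes as bright as the cytosolic members. For genes as bright as the mitochondrial members these shares were 61.2% and 62.8%. The share with both positive was not computed for genes as bright.

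**Figure D5:**
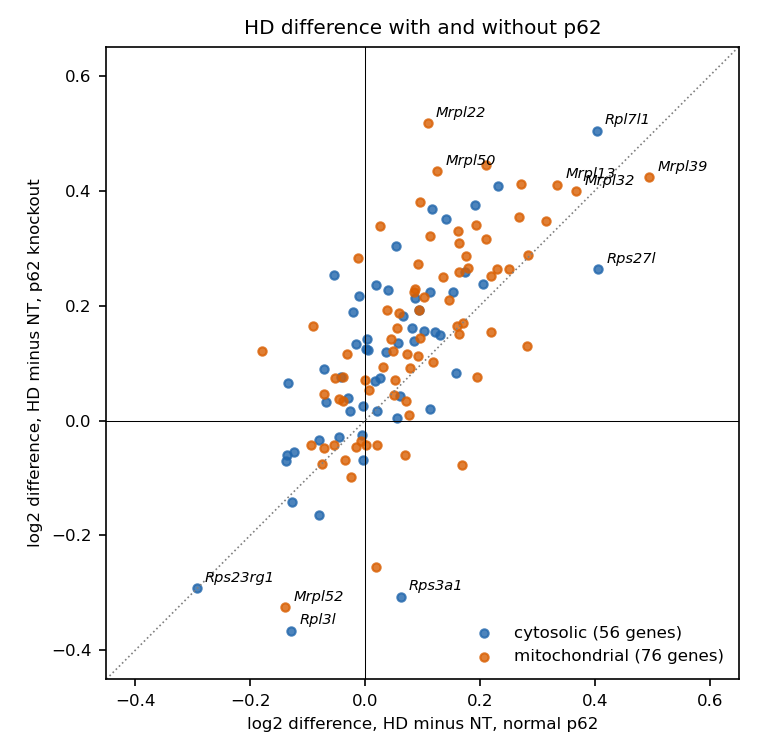
HD difference with normal p62 (horizontal axis, log2) against the HD difference without p62 (vertical axis, log2) for each of the 132 members; the dotted line marks equal differences. Rpl7l1, Mrpl13, Mrpl32 and Mrpl39 are high on both axes, Rps23rg1 is low on both, and no member's difference between the axes passed the test.

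The difference between the HD effects was tested directly, and 0 of the 132 members passed, with 0% of all genes (limma). At an unadjusted p under 0.05 there were 4 members, against 665 of all genes. They were Mrpl50 (0.31 ± 0.12), Mrpl18 (0.30 ± 0.12), Mrps30 (0.31 ± 0.13) and Rps9 (0.25 ± 0.11), given with SE, each with a limma adjusted p of 0.991. Mrpl18, a large-subunit protein with a bacterial relative, read 8.71 to 8.89 in NT_p62KO and 8.83 to 9.04 in HD_p62KO mice, and 8.96 to 9.08 in NT_p62WT and 8.74 to 8.93 in HD_p62WT mice. It was thus lower in HD mice with normal p62, with separate groups, and overlapped without p62. The direction was mostly positive, meaning a larger HD difference without p62, in 44 of 56 cytosolic (median 0.073) and 55 of 76 mitochondrial genes (median 0.063). Over all genes the median was 0.0041, and over genes as bright as the cytosolic and the mitochondrial ones it was 0.046 and 0.029. Positive differences made up 78.6% of cytosolic and 72.4% of mitochondrial genes, 51.3% of all genes and 67.8% and 59.9% of genes as bright.

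Loss of p62 changed no ribosomal protein gene past the threshold. In mice without the transgene, 0 of 132 members passed where 0.0052% of all genes did, the 1 gene being Sqstm1. At an unadjusted p under 0.05 there were 1 cytosolic and 3 mitochondrial genes, against 639 of all genes. Values were mostly lower in the knockouts, with 12 of 56 cytosolic differences positive (median -0.079) and 20 of 76 mitochondrial (median -0.042), against -0.0063 over all genes. Positive differences made up 21.4% and 26.3% of the classes and 47.1% of all genes. Genes as bright were positive in 30% and 38.8%, with medians of -0.033 and -0.023. In 14 cytosolic and 9 mitochondrial genes all 3 knockouts lay below all 3 NT_p62WT mice, where 4% of all genes did.

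Rps9, a small-subunit protein, had the smallest p of these. It read 9.23, 9.30 and 9.27 in NT_p62WT, 9.05, 9.03 and 8.86 in NT_p62KO, 9.48, 9.26 and 9.41 in HD_p62WT and 9.30, 9.45 and 9.29 in HD_p62KO mice. The NT_p62KO mice stood below all others, while HD mice with and without p62 overlapped. The p62 difference was -0.29 ± 0.081 (SE; unadjusted p = 0.00393, limma adjusted p = 1) without the transgene and -0.035 ± 0.081 (adjusted p = 1) with it. Rps20 followed in the cytosolic class (-0.19 ± 0.090, SE; unadjusted p = 0.0508, limma).

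In the mitochondrial class the smallest p were those of Mrpl55 and Mrpl2 (-0.16 ± 0.068, SE; unadjusted p = 0.0364, limma). Mrpl55, a large-subunit protein of metazoan mitochondria, read 8.78, 8.79 and 8.83 in NT_p62WT and 8.58, 8.64 and 8.52 in NT_p62KO mice (-0.22 ± 0.080, SE; unadjusted p = 0.0158, limma). In HD mice it read 8.94, 8.73 and 8.83 with p62 and 8.57, 8.82 and 8.62 without, and these overlapped. Mrpl55 lies on chromosome 11 within 10 Mb of Sqstm1, and Mrpl22, the other member in that interval, differed by -0.21 ± 0.21 (SE; limma, adjusted p = 1). The part of DNA linked to the knocked-out gene was not tested.

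Other values moved with the NT_p62KO group. Of the choroid plexus markers 9 of 9 were positive in NT_p62KO against NT_p62WT mice (median difference 0.69), and their mean was 7.13 to 7.44 in NT_p62WT, 8.08 to 8.35 in NT_p62KO, 7.05 to 8.21 in HD_p62WT and 7.08 to 8.96 in HD_p62KO mice. NT_p62KO replicate 3 had the smallest array SD of all (1.58) and the lowest means of cytosolic (9.83) and mitochondrial genes (8.46). The other NT_p62KO mice were at 9.90 and 9.92 for cytosolic genes, against 9.91 to 9.97 in NT_p62WT mice. The part of tissue make-up and array spread in the lower values was not tested.

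In HD mice, differences of ribosomal protein genes between knockouts and mice with normal p62 were small. None of the 132 passed, with 0.0052% of all genes, and 0 had an unadjusted p under 0.05 (limma), against 555 of all genes. The medians were 0.0084 over cytosolic and 0.015 over mitochondrial genes, and the differences ran from -0.17 to 0.19 and from -0.19 to 0.20. The smallest p were those of Mrpl55 (-0.16 ± 0.080) and Mrpl50 (0.15 ± 0.084) among mitochondrial genes and of Rps29 (-0.092 ± 0.062) and Rpl12 (0.19 ± 0.14) among cytosolic genes, given with SE, each with a limma adjusted p of 1. The p62 comparisons use the same mice as the HD comparisons, so their values are not independent.

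Replicates of a group were close for most members. The widest range within a group had a median of 0.22 over cytosolic and 0.28 over mitochondrial genes. Rps3a1, a small-subunit protein, varied most among the cytosolic genes: it read 8.46, 7.60 and 7.54 in HD_p62WT mice, and 8.18 and 8.37 in the first mice of NT_p62WT and NT_p62KO against 7.57 to 7.93 in the others. Its differences did not pass (mean HD -0.12 ± 0.17, SE; limma, adjusted p = 0.586). Mrpl22 varied most among the mitochondrial genes, at 5.87, 5.57 and 4.94 in NT_p62KO mice. Its mean HD difference of 0.31 ± 0.15 (SE; limma, adjusted p = 0.124) was as large as that of called members but did not pass. The probe set of Rps6, with the brightest mean among cytosolic members (12.59), spanned at most 0.071 within a group, and that of Mrpl23, the brightest of the mitochondrial members (10.40), at most 0.29. The dimmest cytosolic probe set, that of Rpl39l (4.95), spanned up to 0.50. No detection calls were used here, so dim probe sets such as those of Rpl39l, Rpl3l and Mrpl22 could not be called above background.

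Genes that build or run the ribosomes were called higher in HD mice more often than lower. Of 53 ribosome biogenesis genes, 33 rose and 2 fell for the mean HD difference, with a median of 0.22. Over all genes 19.9% were higher and 15% lower in that comparison, which is the background of the list counts that follow. Shares were larger over genes as bright as the mitochondrial and the cytosolic members, where 30.2% and 30.9% were higher. The list genes were not matched for brightness, and no alternatives are given for them. Riok1, a kinase that matures the small subunit, rose by 0.59 ± 0.074 (SE; limma, adjusted p = 0.000275), Nop58, a core protein of box C/D particles that methylate ribosomal RNA, by 0.35 ± 0.055 and Polr1a, the catalytic subunit of RNA polymerase I, by 0.33 ± 0.051. Fbl, the methyltransferase of those particles, differed by 0.027 ± 0.053 and did not pass. With normal p62, 2 of the 53 rose, where 3.85% of all genes did, and without p62 26 rose, where 13.3% of all genes did.

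Of 38 cytosolic translation factors 22 rose and 0 fell (median 0.17), with the smallest p for the initiation factor genes Eif3d (0.31 ± 0.049, SE; limma, adjusted p = 0.00103) and Eif1ax (0.34 ± 0.062) and the release factor gene Etf1 (0.49 ± 0.087). The largest rise was that of Eif4a2, which encodes an RNA helicase of cap-dependent initiation and is named after its values were seen (0.71 ± 0.14, SE; limma, adjusted p = 0.00345). The elongation factor gene Eef2 differed by 0.097 ± 0.043 (adjusted p = 0.0981). Of 5 cytosolic ribosome parts outside the naming rule, none passed, with Rplp1, a stalk protein, at -0.087 ± 0.041 (limma, adjusted p = 0.116).

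For the mitochondrial ribosome, 12 of 28 assembly genes rose and 0 fell (median 0.10). Noa1, a GTPase of mitochondrial ribosome assembly, rose by 0.47 ± 0.064 (SE; limma, adjusted p = 0.000452), Ngrn, which binds the large mitochondrial ribosomal RNA, by 0.43 ± 0.054 and Mterf3, which is needed for large-subunit assembly, by 0.28 ± 0.063, and Mpv17l2 did not pass (0.052 ± 0.068). Of 31 mitochondrial translation factors and synthetases 11 rose and 2 fell (median 0.080). Guf1, a GTPase related to the bacterial factor LepA, rose most, by 0.98 ± 0.094 (SE; limma, adjusted p = 4.13e-05), and Mtfmt, the formyltransferase of the initiator transfer RNA, and Yars2, the tyrosine synthetase, each rose by 0.34. The elongation factor gene Tufm differed by -0.040 ± 0.056. Of 5 genes listed as ribosome parts named otherwise, Oxa1l (0.16 ± 0.044) and Gadd45gip1 (0.15 ± 0.054) rose. Oxa1l is the membrane insertase that the ribosome docks on and is itself no ribosome part. Dap3, a small-subunit GTPase, differed by 0.19 ± 0.071 (limma, adjusted p = 0.0587).

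Regulators of TOR and of 5′ TOP messenger RNAs were split, with 4 of 18 higher and 3 lower (median 0.054). Deptor, an inhibitor of TOR, fell (-0.35 ± 0.074, SE; limma, adjusted p = 0.0042), as did Eif4ebp1, the cap-binding inhibitor that TOR inactivates (-0.24 ± 0.052; adjusted p = 0.00498). Larp1b, a paralog of Larp1, rose by 0.41 ± 0.098 (adjusted p = 0.00824), and Larp1, which binds the 5′ TOP tract, differed by 0.11 ± 0.056 (adjusted p = 0.13).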

How the data were processed

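Striatal RNA of 12 mice was labelled for whole-transcript arrays. Per the submitters' processing notes the authors used RMA, and the values they deposited are log2 expression, 1 per probe set and array. Its settings and the genome build were not given in the sources used here. Groups and replicate numbers came from the titles, which call the samples biological replicates, so 1 array stands for 1 mouse here. The p-values rest on the spread between samples of a group, and precision is limited by how few arrays there are.

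Of 24055 probe sets 19942 had 1 gene symbol, 1225 had several and 2888 were not listed in the platform table. The brightest probe set per gene was used for 19248 genes. The rule left out 7 symbols that match a prefix. All 132 members matched the RefSeq gene table, which updated 0 symbols.

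limma 3.58.1 (R 4.3.3) fitted all 12 arrays with 1 mean for each group (8 residual and 4.14 prior degrees of freedom), with Benjamini-Hochberg adjustment over all genes in a contrast and a threshold of 0.05. The fit was tested on simulated data. The mean HD difference is the mean of the HD differences with and without p62. Members, lists and marker genes were chosen with earlier results of these data known. Named members were, per contrast and class, up to 6 past the threshold in each direction, or the 2 of smallest p where none passed, plus those of highest or lowest mean, widest range, paralogs, name matches, members with disagreeing probe sets and members near Sqstm1. From each list up to 3 genes past the threshold and the brightest that did not pass were named. Further called members were listed with their difference after their values were seen. Alternatives were a block for the replicate number, equal array medians, quantile normalization again, leaving out the dimmest 25% of genes, averaged probe sets, array weights, trended and robust variances, a fit of only the groups compared, the array SD as a covariate, leaving out the 3 arrays of smallest SD or each mouse in turn and, added after seeing the data, the choroid plexus mean as a covariate. Same-numbered mice did not deviate together over all genes (correlations of deviations from group means -0.34 to 0.21), so the main fit did not pair them. With 3 mice a group these correlations cannot settle whether the numbers pair the mice. No protein sequences were used here.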

Additional observations from a re-analysis of the deposited data

Results flagged for a closer look

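Ribosomal protein genes were also read by 162 probe sets that carry several symbols and stood in no comparison above. Of these, 32 were higher and 0 lower for the mean HD difference (limma, adjusted p below 0.05). That is 19.8% higher, against 19.9% of all genes, and 0 lower, where 15% of all genes were. Over genes as bright as the cytosolic members 30.9% were higher. A share of overlapping probe sets and a share of genes are not like for like, so the count was not judged against background. The probe sets hold 24 ribosomal protein genes that had no probe set of their own. Of these, 7 (29.2%) were higher and 0 lower on their brightest probe set (median 0.079). Rpl37 with Rpl37rt, Rpl32 with Rpl32l and Rps27 with Rps27rt each share that probe set, so the gene counts exceed the number of separate signals. Rpl22l1, a paralog of Rpl22, differed by 0.48 ± 0.070 (SE; limma, adjusted p = 0.000693), Rpl39 by 0.22 ± 0.046 (adjusted p = 0.00505), Rpl3 by 0.21 ± 0.064 (adjusted p = 0.0257), Rpl15 by 0.20 ± 0.060 (adjusted p = 0.0251), Rpl7a by 0.13 ± 0.044 (adjusted p = 0.0409) and Rpl37 with Rpl37rt, which share a probe set, by 0.19 ± 0.068 (adjusted p = 0.046). Each shares its probe set with another symbol, often a predicted gene, so the gene behind the signal is uncertain. Rpl22, which has its own probe set, differed by 0.12 ± 0.067 (adjusted p = 0.172). The probe sets of a gene overlap and are not independent.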

How the results depend on the processing

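With normal p62, 2 cytosolic and 5 mitochondrial members were called. With the replicate number as a block they were 0 and 1, with array weights 6 and 12, with a covariate for the choroid plexus markers (chosen after seeing the data) 1 and 1, and without the 3 arrays of smallest SD 1 (a new call, lower) and 2. The array SD as a covariate left 1 cytosolic call and equal array medians 3 mitochondrial calls. Without p62, 7 and 21 were called. The replicate block left 4 cytosolic calls, trended and robust variances gave 12, array weights 21, only the groups compared 4 and 4, the array SD as a covariate 0 and 0, and leaving out the 3 arrays 3 and 4. For the mean HD difference, the array SD as a covariate gave 4 and 5 calls, of which 3 and 5 were among the 15 and 29 reported, and the replicate block 12 and 23. Leaving out each mouse in turn gave 0 to 3 cytosolic and 1 to 7 mitochondrial calls with p62, with 2.07% to 10.6% of all genes. Without p62 it gave 2 to 14 and 3 to 27, with 6.61% to 26.6% of all genes. For the mean HD difference it gave 6 to 17 and 18 to 33, with 25.9% to 39.2% of all genes. Over all genes, 1366 were called with p62 as reported. This became 709 with the block, 663 with the choroid plexus mean and 4625 with array weights. It was 1328 with the array SD, 1290 with equal array medians and 1085 without the 3 arrays. Without p62 the reported 4172 became 3054 with the block, 4464 with trended and robust variances and 6663 with array weights. It was 843 with the array SD, 1742 with only the groups compared and 1790 without the 3 arrays. For the mean HD difference the reported 6728 became 2541 with the array SD and 5758 with the block.

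The cytosolic minus mitochondrial median was -0.062 with p62, -0.029 without it, -0.052 for the mean HD difference, -0.037 and -0.0066 for p62 loss without and with the transgene and 0.010 for the difference of HD effects. After quantile normalization again they were -0.031, -0.015 and -0.031 for the HD differences with p62, without p62 and averaged. Leaving out NT_p62KO replicate 3 gave -0.018 without p62. The difference of HD effects was 0.048 with array weights, 0.038 with the array SD and 0.053 without the 3 arrays, and -0.018 to 0.034 leaving out each mouse, so its sign is not settled. Class counts and gaps between medians were pooled over all comparisons and alternatives. Of these, 343 stayed within 1.5 times the reported count or within 0.0247 of the reported gap, and 55 did not. Here 0.0247 is 1 SD of the gap within groups. The pool holds the counts for p62 loss and for the difference of HD effects, which were 0 as reported. The 343 therefore does not show how stable the HD counts were. Of the values of named members, 1307 kept their call, 466 lost it and 0 changed sign. The block is given only as an alternative, since same-numbered mice did not deviate together over all genes, which does not settle whether they are paired. The causes of these changes were not tested.

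The main limits are 3 mice per group, RMA's common scale, no detection calls, an array spread that differs between HD and non-transgenic mice, and probe sets not checked here for matches to pseudogenes and paralogs, of which cytosolic ribosomal proteins have many.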
